A study of Mus musculus with 4 samples.

Results

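The genes examined here encode subunits of the ATP-dependent chromatin remodellers, and the measurement is how much of their RNA was recovered with SAFB from mouse hepatocyte nuclei. Members were taken by gene symbol: every Smarca to Smarce gene, Chd1 to Chd9, and 18 further named partners and enzymes. The rule found 43 entries of 52197 in the table, which are 42 genes of 52189, because Chd1 stands in 2 entries that were summed. Of these genes, 40 are annotated as protein-coding and 2, Smarca5-ps and Smarce1-ps1, as processed pseudogenes. The values of the RNAs were not used to choose the members.

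Both groups of the study came from AML12, a hepatocyte line established from the liver of a mouse transgenic for human TGF alpha, grown with serum, ITS supplement and dexamethasone. Cells were crosslinked with ultraviolet light, and lysed, sonicated nuclei were divided between 2 antibodies. The SAFB RIP (2 libraries) was made with an antibody to scaffold attachment factor B (SAFB), which binds both RNA and DNA in the nuclear matrix. The IgG RIP (2 libraries) used control IgG on the same kind of extract and gives the background. The labels do not say whether replicates were separate cultures, so p-values measure only the spread between these libraries. Values are TPM, transcript shares that already allow for transcript length, scaled to the same total in every library. The read depth is unknown. An RNA immunoprecipitation gives the recovery of an RNA relative to the rest of its library. The input extract was not analysed here, so no value is set against the level of the RNA in the nuclei.

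Remodellers use ATP hydrolysis to slide, eject or exchange nucleosomes. They fall into 4 classes by their motor: BAF (SWI/SNF) with SMARCA2 or SMARCA4, ISWI with SMARCA1 or SMARCA5, the CHD enzymes, and the INO80 class with INO80, EP400 or SRCAP. A motor works with partner subunits that choose its targets, and many partners exist as alternative paralogs, so that 1 motor can sit in several complexes. In liver, BAF complexes are known to act in hepatocyte differentiation. What was measured here is the messenger and precursor RNA of these subunits, not the proteins.

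The transcript stretches below show the purine-rich hexamer GAAGAA, of a kind described for SAFB in other work, in subunits whose RNAs behaved differently in the SAFB RIP. Each is a 120-base coding window inside 1 exon, chosen because it holds the most copies of the hexamer in that transcript's coding exons, printed 5′ to 3′ on the sense strand of the gene with GAAGAA in capitals. Positions are on mm10 with the GENCODE M21 annotation. Pbrm1 (chr14:31074856-31074975, plus strand, exon 20 of 33), Baz1a (chr12:54934770-54934889, minus strand, exon 9 of 27), Smarca2 (chr19:26774173-26774292, plus strand, exon 31 of 33) and Ino80 (chr2:119454098-119454217, minus strand, exon 5 of 36) were called higher in the SAFB RIP. Smarca4 (chr9:21642461-21642580, plus strand, exon 10 of 34) and Chd5 (chr4:152353553-152353672, plus strand, exon 3 of 42) were not called, and Smarcb1 (chr10:75916792-75916911, minus strand, exon 2 of 9) was called lower.
Pbrm1: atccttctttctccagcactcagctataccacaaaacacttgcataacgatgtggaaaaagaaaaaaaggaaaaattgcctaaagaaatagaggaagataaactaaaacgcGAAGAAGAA
Baz1a: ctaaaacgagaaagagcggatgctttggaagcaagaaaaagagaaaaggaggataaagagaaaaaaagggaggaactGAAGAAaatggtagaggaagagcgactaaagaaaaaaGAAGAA
Smarca2: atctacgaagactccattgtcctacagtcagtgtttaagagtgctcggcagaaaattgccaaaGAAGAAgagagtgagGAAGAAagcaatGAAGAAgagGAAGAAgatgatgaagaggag
Ino80: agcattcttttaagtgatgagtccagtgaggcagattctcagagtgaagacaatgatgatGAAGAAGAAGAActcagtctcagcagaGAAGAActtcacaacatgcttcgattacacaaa
Smarca4: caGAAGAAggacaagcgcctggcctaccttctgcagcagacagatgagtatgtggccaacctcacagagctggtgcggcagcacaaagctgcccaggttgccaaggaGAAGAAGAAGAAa
Chd5: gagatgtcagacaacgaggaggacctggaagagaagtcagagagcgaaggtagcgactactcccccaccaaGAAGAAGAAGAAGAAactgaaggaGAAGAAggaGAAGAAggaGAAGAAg
Smarcb1: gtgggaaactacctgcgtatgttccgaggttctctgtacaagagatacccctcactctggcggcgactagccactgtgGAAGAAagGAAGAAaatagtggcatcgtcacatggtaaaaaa
The windows of Smarca2, Ino80 and Smarca4 hold 4 copies each, that of Chd5 holds 7, and those of Pbrm1, Baz1a and Smarcb1 hold 2. The densest of these windows was that of Chd5, an RNA at only 1.70 to 2.51 TPM in the 4 libraries. Its missing call therefore says little about its recovery. Smarcd1 and Smarcd2 have no GAAGAA in the annotated transcript, so no window is shown for them. A match of 6 letters is a description of the transcript and not a binding site.

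A gene was tested where it reached 1 TPM in at least 2 of the 4 libraries, on the log2(TPM + 1) scale, with limma and a Benjamini-Hochberg adjusted p threshold of 0.05 over all 16647 genes that passed. Of the 42 genes, 39 were tested. Smarca1, the alternative ISWI motor, was listed at 0 in all 4 libraries. Smarca5-ps was listed at 0.117 TPM in SAFB RIP replicate 2 and at 0 elsewhere, and Smarce1-ps1 at 0.177 TPM in SAFB RIP replicate 1 and at 0 elsewhere.

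Of the 39 subunit genes, 18 were higher in the SAFB RIP, 2 were lower and 19 were not called. Over all genes tested, 29.8% were called higher and 8.3% lower. The median log2 fold change was 0.63 over the subunits, beside 0.46 over all genes tested and 0.34 over 11961 protein-coding genes tested. The 2 SAFB values were both above the 2 IgG values for 26 subunits and both below them for 6, and 7 overlapped, where 52.3% of all genes lay above and 21.4% below. In sum the members held 6510 and 6485 TPM in the SAFB libraries, against 4092 and 3816 TPM in the IgG libraries. Because all genes were shifted up by 0.46 at the median, calls were also made after each library was centred on its own median. Then 13 subunits were higher and 6 lower, against 16.4% and 17.6% of all genes. The 13 were Smarca2, Smarce1, Arid2, Pbrm1, Brd7, Smarca5, Baz1a, Baz1b, Chd1, Chd2, Chd6, Chd8 and Chd9. Each of them was called higher in all 12 settings that kept the 4 libraries. These settings share the same libraries, several share the same fold changes, and no such count over all genes is given here. The groups of the 20 genes called as deposited did not overlap, so leaving out 1 library could not turn their direction. When either SAFB library was left out, 0 subunits passed in limma (14 higher at an unadjusted p under 0.05 each time, and all 20 called genes in the same direction), where 4.61% and 4.7% of all genes were called higher and 0.042% lower. Without IgG RIP replicate 1, 24 subunits were higher and 2 lower (41.2% and 13.6% of all genes), and without IgG RIP replicate 2, 23 were higher and 6 lower (45.8% and 15.4%).

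**Figure D1:**
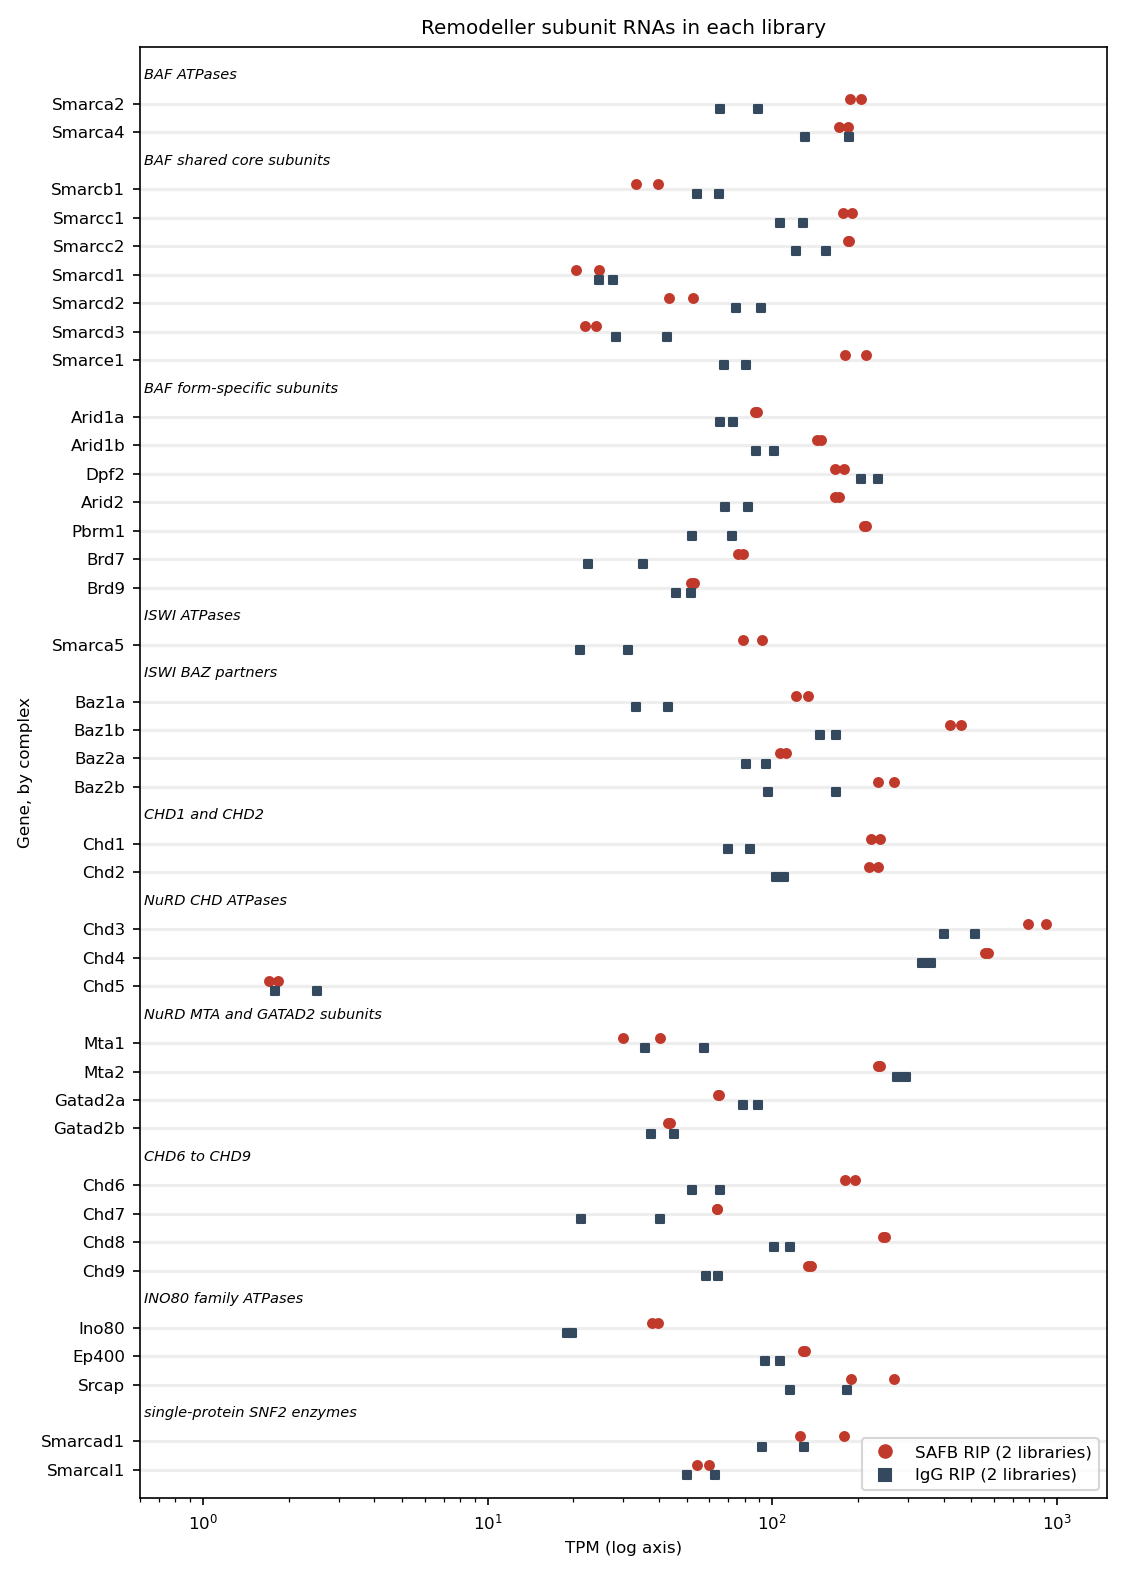
TPM (log axis) of the 39 tested subunit genes, grouped by complex, with 1 point per library (red circles, SAFB RIP; dark squares, IgG RIP). The SAFB points of Pbrm1, Baz1a, Smarca5 and Chd6 lie well to the right of their IgG points, those of Smarcb1 and Smarcd2 lie to the left, and those of Smarca4 overlap.

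The libraries differed in composition. Transcripts of the ribosomal DNA fragment on chromosome 17 (AY036118, Gm26917 and Gm42418) took 1.002% and 1.52% of the SAFB libraries, against 18.7% and 14.8% of the IgG libraries. The SAFB libraries listed 22389 and 21006 genes above 0, against 16031 and 17278 in the IgG libraries. The median absolute log2 difference between replicates over all genes tested was 0.166 in the SAFB RIP and 0.370 in the IgG RIP, and over the subunits 0.100 and 0.267. Leaving the 3 ribosomal DNA fragment transcripts out and rescaling gave 15 subunits higher and 5 lower, where 22.5% and 12.1% of all genes were called. Safb itself was higher by 2.49 ± 0.11 (log2, SE), its paralog Safb2 by 2.99 ± 0.10 and Sltm by 1.44 ± 0.17. All 12 hepatocyte markers were tested, of which 3 were higher (Alb by 0.43, Apob by 1.03 and Afp by 1.32 on the log2 scale), 1 was lower (Trf, -0.59) and 8 were not called. After centring 1 was higher (Apob) and 4 were lower, where 16.4% and 17.6% of all genes were called. Ttr was at 1736.5 and 1629 TPM in the SAFB libraries and 1819.9 and 1849 TPM in the IgG libraries, and Afp, a fetal liver marker, was at 1.31 and 1.69 TPM against 0 in both IgG libraries. Afp thus passed the filter only through the SAFB libraries, and its call is not read as a result. Of the 4 immune markers only Cd68 was tested, at 31.5 and 21.3 TPM in the SAFB libraries and 12.7 and 6.31 TPM in the IgG libraries, and Ptprc and Adgre1 were at 0 or under 1 TPM in each library. The 3 endothelial markers summed to between 0.0816 and 0.771 TPM per library and the 4 fibroblast and stellate markers to between 0 and 1.83 TPM. The bile duct markers Krt19, Krt7 and Sox9 were present, summing with Epcam to 869.9 and 900.5 TPM in the SAFB libraries and 1265 and 910.04 TPM in the IgG libraries. Krt19 and Sox9 were called lower, at -0.62 and -0.55 on the log2 scale, and Krt7 was not called. The part of these differences in the results below was not tested, beyond the rescaling just given.

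BAF complexes are built on 1 of 2 interchangeable motors, and the RNAs of the 2 differed in the SAFB RIP. Smarca2, which encodes BRM, had 188 and 205 TPM in the SAFB libraries, against 89.4 and 65.5 TPM in the IgG libraries. Its SAFB values were both well above the IgG values, and it rose by 1.34 ± 0.18 (log2, SE; adjusted p = 0.0101). Smarca4, which encodes BRG1, had 172 and 184 TPM in the SAFB libraries, against 185 and 130.0 TPM in the IgG libraries. The groups overlapped, and the log2 fold change was 0.19 ± 0.19 (adjusted p = 0.473). In the SAFB libraries Smarca2 was slightly the more abundant of the 2, at 1.09 and 1.11 times the Smarca4 level, and in the IgG libraries the less abundant, at 0.482 and 0.504 times that level.

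The core BAF subunits listed here did not move together. Of 7 genes, 2 rose, 2 fell and 3 were not called, where 29.8% of all genes were higher and 8.3% lower. The median log2 fold change of the 7 was -0.20. Smarce1, which encodes the HMG-box subunit BAF57, had 214 and 179.5 TPM in the SAFB libraries, against 80.6 and 67.5 TPM in the IgG libraries. The groups were well apart, and it rose by 1.40 ± 0.15 (adjusted p = 0.00734). Smarcc1, which encodes the scaffold subunit BAF155, had 177 and 189.9 TPM in the SAFB RIP against 106 and 128 TPM in the IgG RIP. It rose by 0.65 ± 0.13 (adjusted p = 0.0238), but after centring the value was 0.19 (adjusted p = 0.278). Its paralog Smarcc2 (BAF170) had 186 and 184 TPM against 154 and 121 TPM, and its 0.43 ± 0.15 missed the threshold (adjusted p = 0.0801).

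Smarcb1 and Smarcd2 were the 2 subunits called lower. Smarcb1 (SNF5), the core subunit lost in rhabdoid tumours, had 33.1 and 39.8 TPM in the SAFB libraries, against 54.3 and 65.2 TPM in the IgG libraries. Both SAFB values were below both IgG values, and it fell by 0.70 on the log2 scale (SE 0.18, adjusted p = 0.0395). Smarcd2, a BAF60 subunit with a known role in granulocyte maturation, had 43.5 and 52.9 TPM against 91.6 and 74.5 TPM, again without overlap. It fell by 0.77 on the log2 scale (SE 0.18, adjusted p = 0.0306). Both calls were lost when the trend of fold change with GC content was removed, at -0.22 for Smarcb1 (adjusted p = 0.391) and -0.14 for Smarcd2 (adjusted p = 0.58). Over the 12 settings with 4 libraries, Smarcb1 was called lower in 8 and Smarcd2 in 10. The other 2 BAF60 genes were not called. Smarcd1 had 20.5 and 24.7 TPM in the SAFB libraries against 27.5 and 24.6 TPM in the IgG libraries, and Smarcd3 had 22.04 and 24.1 TPM against 42.7 and 28.1 TPM. Smarcd3 was called lower after centring, at -1.03 (adjusted p = 0.0441), and 48.2% of its exonic bases overlap Chpf2 on the other strand, so its value is uncertain.

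Of the 7 genes whose subunits set the form of a BAF complex, 4 rose and 3 were not called, where 29.8% of all genes were higher. The PBAF genes Pbrm1, Arid2 and Brd7 all rose, and each kept its call after centring, where 16.4% of all genes were called higher. Pbrm1, which encodes the polybromo protein that reads acetylated histones, had 214 and 210.2 TPM in the SAFB libraries, against 72.3 and 52.3 TPM in the IgG libraries. Its SAFB replicates were nearly equal and far above both IgG values, and at 1.77 ± 0.18 (adjusted p = 0.00652) it had the highest fold change of the 39 genes, at the 87.8th percentile of all genes tested. Arid2, the DNA-binding subunit of PBAF, had 166 and 171 TPM against 68.0 and 82.4 TPM, a rise of 1.16 ± 0.13 (adjusted p = 0.00788). Brd7, a bromodomain subunit of PBAF, had 78.8 and 75.9 TPM against 35.1 and 22.5 TPM. Its groups did not overlap either, and it rose by 1.43 ± 0.24 (adjusted p = 0.016).

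Of Arid1a, Arid1b and Dpf2, whose subunits are found in canonical BAF and not in PBAF, Arid1b was called. It had 144 and 148 TPM in the SAFB libraries, against 101 and 87.5 TPM in the IgG libraries, and rose by 0.63 ± 0.12 (adjusted p = 0.02), which became 0.17 after centring (adjusted p = 0.384). Arid1a, the paralog of Arid1b and a frequent tumour suppressor in liver cancer, had 88.4 and 86.7 TPM against 65.7 and 73.0 TPM. Its 0.33 ± 0.12 missed the threshold (adjusted p = 0.086), though the groups did not overlap. With the GC trend removed both ARID1 genes were called higher, at 0.95 for Arid1a (adjusted p = 0.0104) and 0.83 for Arid1b (adjusted p = 0.0133), against 0.79 for Arid2 (adjusted p = 0.0189). Whether canonical BAF and PBAF genes differ was not tested. Dpf2, whose PHD fingers bind histone tails, had 179 and 166 TPM in the SAFB RIP against 236 and 204 TPM in the IgG RIP. Its -0.35 ± 0.12 was not called as deposited (adjusted p = 0.0788) and was called lower after centring, at -0.81 (adjusted p = 0.0151). Brd9, the bromodomain subunit of the non-canonical form, had 51.8 and 52.9 TPM against 51.8 and 45.8 TPM, with a fold change of 0.10 ± 0.14 (adjusted p = 0.59).

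The ISWI motor Smarca5 (SNF2H) had 92.2 and 78.7 TPM in the SAFB libraries, against 21.2 and 31.2 TPM in the IgG libraries. Both SAFB values were far above both IgG values, and Smarca5 rose by 1.69 ± 0.23 (adjusted p = 0.0106). Its BAZ partners, large proteins with a bromodomain that direct SMARCA5 to different chromatin, split into a pair that rose and a pair that was not called. Baz1a (ACF1), the partner in the ACF and CHRAC nucleosome-spacing complexes, had 133 and 121 TPM against 43.0 and 33.2 TPM. Baz1b (WSTF), the partner in the WICH complex at replication sites, had 460.4 and 422 TPM against 147 and 168 TPM. Neither gene's groups came close to overlapping, with rises of 1.72 ± 0.17 for Baz1a (adjusted p = 0.00623) and 1.48 ± 0.12 for Baz1b (adjusted p = 0.00488). Baz2a (TIP5), the partner in the nucleolar remodelling complex that silences ribosomal DNA, had 107 and 112 TPM in the SAFB RIP against 80.8 and 95.1 TPM in the IgG RIP, a fold change of 0.31 ± 0.13 (adjusted p = 0.121). Baz2b had 267 and 235 TPM against 96.2 and 168 TPM. The IgG values of Baz2b were far apart, and 0.97 ± 0.29 missed the threshold (adjusted p = 0.0572).

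**Figure D2:**
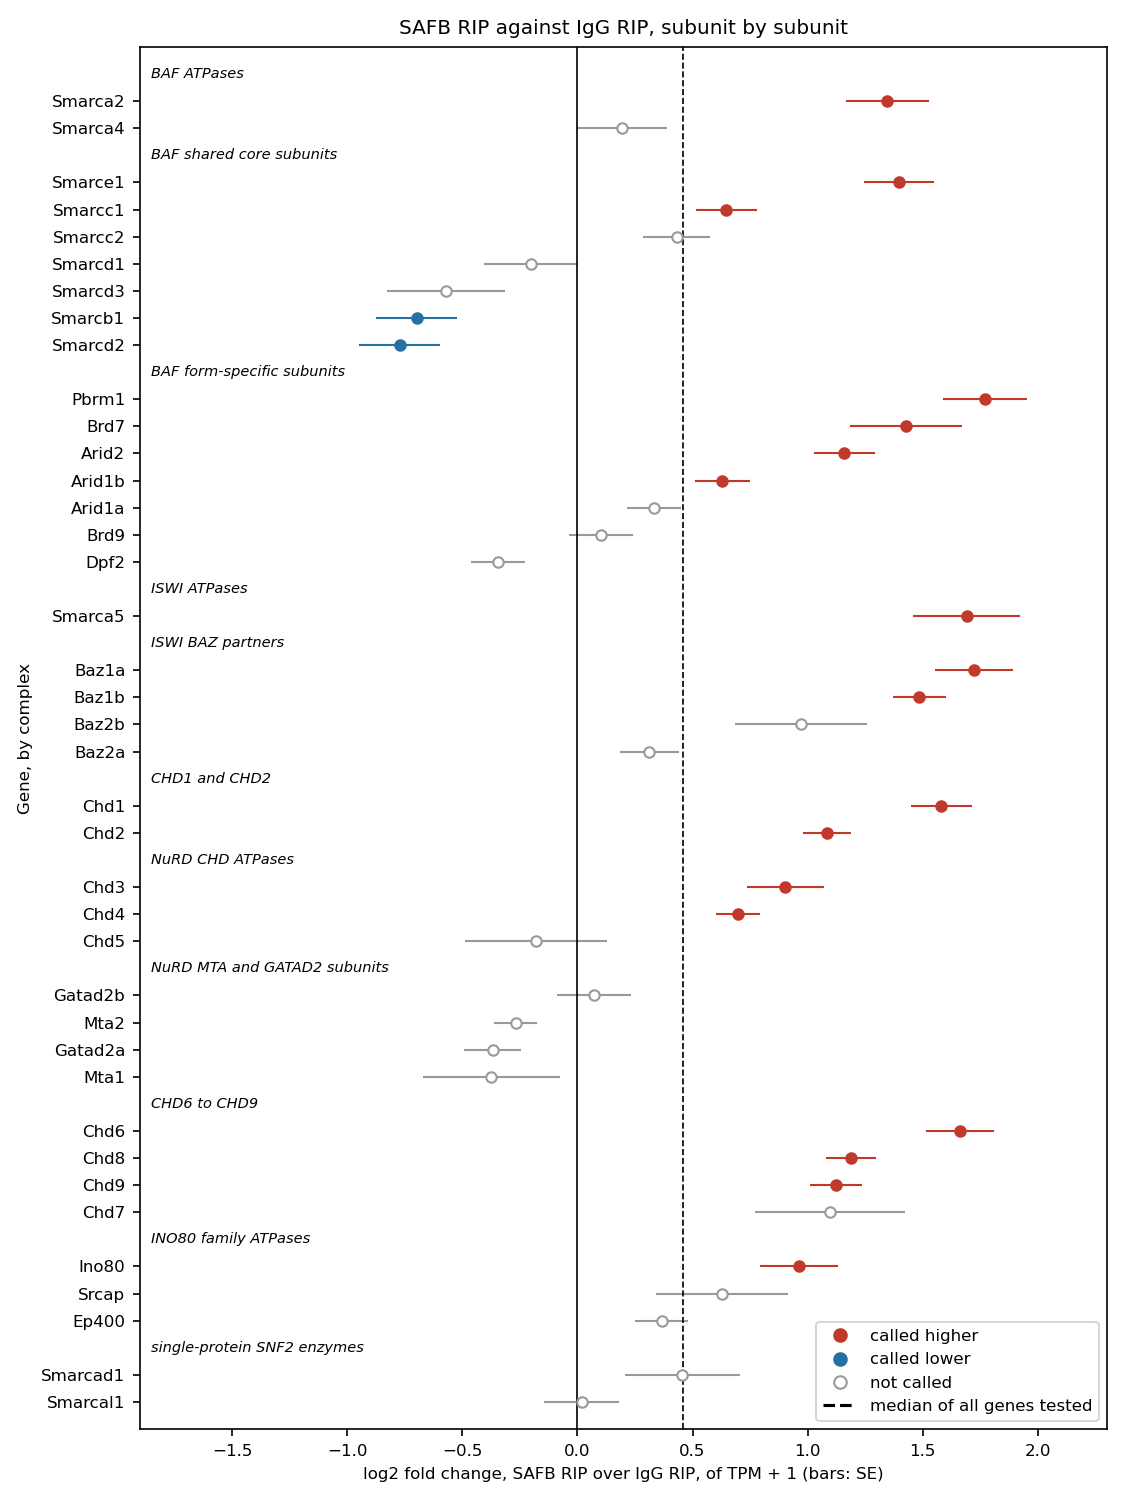
Log2 fold change of TPM + 1, SAFB RIP over IgG RIP, for the 39 tested subunit genes by complex, with standard errors as bars. Red points are called higher (18), blue points lower (2), open grey points not called (19), and the dashed line is the median of all genes tested, 0.46.

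Of the 9 CHD enzymes, which carry paired chromodomains beside the motor, 7 rose and 2 were not called, where 29.8% of all genes were higher. Their median log2 fold change was 1.10. After centring 5 were higher, against 16.4% of all genes, and the median was 0.64. Chd1, which binds trimethylated lysine 4 of histone H3 and spaces nucleosomes behind RNA polymerase II, had 221 and 240.0 TPM in the SAFB libraries, against 69.7 and 83.8 TPM in the IgG libraries. It rose by 1.58 ± 0.13 (adjusted p = 0.00531), and both of its entries in the table were higher in the SAFB RIP, at 124.6 and 145.5 TPM against 21.8 and 40.4 TPM for one and 96.9 and 94.5 TPM against 47.9 and 43.4 TPM for the other. Its close paralog Chd2 had 236 and 218 TPM against 103 and 110.3 TPM, a rise of 1.08 ± 0.10 (adjusted p = 0.00605). For Chd2, 18.4% of exonic bases overlap the noncoding gene 1810026B05Rik on the same strand.

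Chd6, Chd8 and Chd9 rose and Chd7, the gene of CHARGE syndrome, was not called. Chd6 had 195 and 180.4 TPM in the SAFB libraries, against 65.5 and 52.3 TPM in the IgG libraries, and rose by 1.66 ± 0.15 (adjusted p = 0.00577). Chd8, known as a repressor of beta-catenin targets, had 249 and 246 TPM against 101 and 115 TPM. Chd9 had 136 and 134 TPM against 58.4 and 64.6 TPM. The 3 genes had SAFB replicates close to each other and far above the IgG values, and Chd8 rose by 1.19 ± 0.11 (adjusted p = 0.00582) and Chd9 by 1.12 ± 0.11 (adjusted p = 0.00637). Chd7 had 63.8 and 64.1 TPM in the SAFB RIP against 40.4 and 21.2 TPM in the IgG RIP. Its fold change of 1.10 ± 0.33 was close to that of Chd9, but its IgG values spread widely and the adjusted p was 0.0581.

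The NuRD complex joins a CHD motor to histone deacetylases. Its members here are 3 motor genes and 4 MTA and GATAD2 genes, and the deacetylase genes are given with the further genes below. Chd3 and Chd4, the 2 most abundant of the 39 RNAs, both rose. Chd3 had 793 and 913 TPM in the SAFB libraries, against 517 and 399.9 TPM in the IgG libraries, a log2 fold change of 0.90 ± 0.17 (adjusted p = 0.0191). Chd4 had 571 and 558 TPM against 362 and 335 TPM, a log2 fold change of 0.70 ± 0.10 (adjusted p = 0.0106). Neither was called after centring, at 0.44 for Chd3 (adjusted p = 0.124) and 0.24 for Chd4 (adjusted p = 0.177). Chd5, the neuronal NuRD motor, was near the detection filter, at 1.84 and 1.70 TPM against 1.80 and 2.51 TPM, and was not called.

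Of the 4 MTA and GATAD2 genes, which encode the scaffold between motor and deacetylase, 0 were called by limma, with 2 (Mta2 and Gatad2a) at an unadjusted p under 0.05 and both lower in the SAFB RIP. The shares called over all genes were 29.8% higher and 8.3% lower. Mta2 had 235 and 238 TPM in the SAFB libraries, against 275 and 295 TPM in the IgG libraries, and Gatad2a had 64.4 and 65.1 TPM against 89.5 and 78.6 TPM. The SAFB values of both genes lay below their IgG values, with log2 fold changes of -0.27 ± 0.09 for Mta2 (adjusted p = 0.0852) and -0.37 ± 0.12 for Gatad2a (adjusted p = 0.0783). After centring both were called lower, at -0.73 for Mta2 (adjusted p = 0.00868) and -0.83 for Gatad2a (adjusted p = 0.0152). In that setting 17.6% of all genes were called lower. Mta1 had 40.3 and 29.9 TPM against 57.5 and 35.7 TPM, and Gatad2b had 43.1 and 43.6 TPM against 37.5 and 45.3 TPM. The groups of these last genes overlapped.

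Among the motors of the INO80 class, Ino80 had 39.7 and 37.8 TPM in the SAFB libraries, against 19.0 and 19.7 TPM in the IgG libraries. Replicates were close and the groups far apart, and Ino80 rose by 0.96 ± 0.17 (adjusted p = 0.017), which missed the threshold after centring at 0.50 (adjusted p = 0.0873). Ep400, the motor that places histone variants H2A.Z and H3.3, had 130.3 and 128 TPM against 107 and 94.0 TPM, a fold change of 0.37 ± 0.11 (adjusted p = 0.0652). Srcap, the other H2A.Z exchange motor, had 268 and 189.6 TPM against 183 and 116 TPM. Its replicates differed within both groups, the fold change was 0.63 ± 0.29 (adjusted p = 0.153), and 61.7% of its exonic bases are shared with Gm42715 on the same strand. Smarcad1, which acts at replicating heterochromatin, had 126 and 179 TPM in the SAFB RIP against 92.3 and 129 TPM in the IgG RIP, with overlap. Smarcal1, an annealing helicase at stalled replication forks, had 59.8 and 54.2 TPM against 62.8 and 50.4 TPM, with overlap. Neither was called, at 0.46 ± 0.25 for Smarcad1 (adjusted p = 0.215) and 0.02 ± 0.16 for Smarcal1 (adjusted p = 0.941).

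Counted by role, 10 of the 17 motor enzymes tested rose, and the other 7 were not called. Of the 22 partner subunits, 8 rose, 2 fell and 12 were not called. Over all genes tested the shares were 29.8% higher and 8.3% lower, and the partners' counts are near them. The median log2 fold change was 0.96 over the enzymes and 0.32 over the partners, and after centring 0.50 and -0.14. Whether the enzymes and the partners differ was not tested.

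A ratio of 2 paralogs within 1 library does not depend on how the libraries are scaled. Of 17 such ratios, 7 were higher in both SAFB libraries than in both IgG libraries, 2 were lower and 8 overlapped. No such count was made over other gene pairs, so this one has no background to be read against. Among the 7, Arid1b over Arid1a and Gatad2b over Gatad2a turned direction with the GC trend removed, as differences of log2 fold changes of -0.12 and -0.55. With 2 libraries a group an exact two-sided permutation test cannot give a p below 0.333, so the ratios are described without a test. Brd7 over Brd9 was 1.52 and 1.43 in the SAFB libraries, against 0.678 and 0.492 in the IgG libraries, and had the largest ratio of group geometric means among the 17, 2.56. The ratio of Smarca2 to Smarca4 given above came next by that measure, at 2.24. Smarcd1 over Smarcd2 was 0.471 and 0.467 in the SAFB RIP against 0.2999 and 0.330 in the IgG RIP, Smarcd2 having fallen and Smarcd1 not being called. Chd2 over Chd1 ran the other way, at 1.07 and 0.909 against 1.48 and 1.32. The ratios of Smarcc1 to Smarcc2, Chd3 to Chd4 and Srcap to Ep400 overlapped between the groups.

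**Figure D3:**
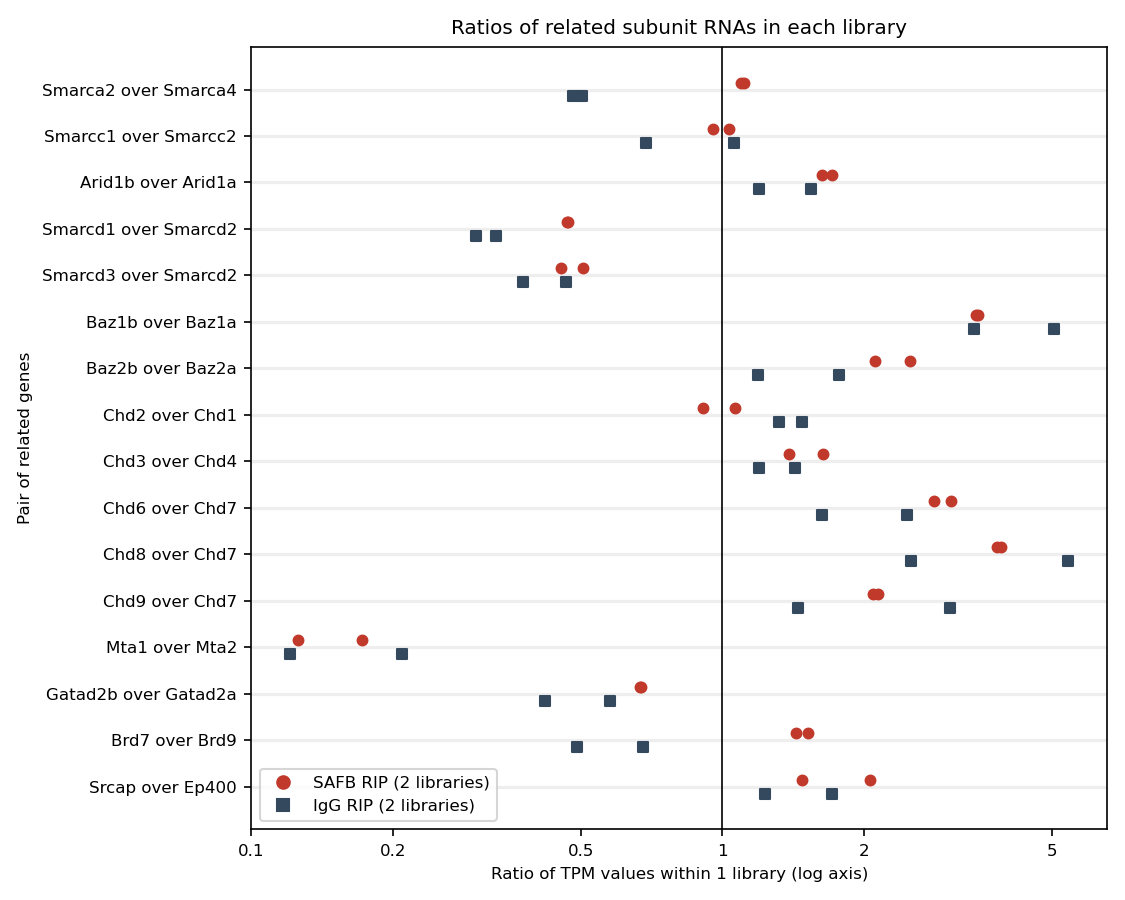
Ratio of the TPM values of 2 related subunit genes within each library (log axis; red circles, SAFB RIP; dark squares, IgG RIP), for 16 of the 17 pairs. Brd7 over Brd9 and Smarca2 over Smarca4 lie above 1 in both SAFB libraries and below 1 in both IgG libraries, and Chd5 over Chd4, under 0.01 in every library, is not drawn.

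Besides further subunits of these complexes, 14 other SNF2-like ATPases were listed, and the counts of further complex genes include them. The lists held 73 names, not picked for how the genes moved, though earlier results of these data were known. Of these, 71 were in the table and 65 were tested, of which 32 were higher, 4 lower and 29 not called, with a median log2 fold change of 0.82, beside the 29.8% and 8.3% of all genes. After centring 15 were higher and 6 lower, where 16.4% and 17.6% of all genes were called. Without SAFB RIP replicate 1 or 2 only 2 were higher and 0 lower in limma (15 or 16 higher and 1 lower at an unadjusted p under 0.05), where 4.61% or 4.7% of all genes were higher and 0.042% lower. For each list the 4 genes of highest mean TPM are named here.

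Of the 9 other BAF genes tested, 5 rose, and after centring only Bcl7a was higher. For this and each following list, the share of all genes called higher was 29.8%, and 16.4% after centring. Bcl7a, a small BAF subunit, had 176 and 180.2 TPM in the SAFB libraries, against 39.5 and 38.1 TPM in the IgG libraries, a rise of 2.17 ± 0.11 (adjusted p = 0.00378) that exceeded that of each of the 39 members. Phf10, a further PBAF subunit, had 76.5 and 68.6 TPM against 13.3 and 33.1 TPM and rose by 1.73 ± 0.44 (adjusted p = 0.0402), a call lost after centring. Ss18, the BAF gene fused in synovial sarcoma, rose by 0.58 ± 0.14 (adjusted p = 0.0346), and after centring was at 0.12 (adjusted p = 0.581). Actl6a, the actin-like subunit, had 47.6 and 45.2 TPM against 43.4 and 38.7 TPM and was not called.

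Of the 7 other ISWI genes tested, 4 rose, and after centring 4 were higher and 1 was lower (Rbbp4). Bptf, the large partner in NURF, had 239 and 219 TPM in the SAFB libraries against 82.8 and 61.8 TPM in the IgG libraries, a rise of 1.66 ± 0.17 (adjusted p = 0.00674). Chrac1, a histone-fold subunit of CHRAC, had 105 and 84.8 TPM against 37.8 and 41.0 TPM and rose by 1.24 ± 0.16 (adjusted p = 0.00939). The histone chaperones Rbbp7 and Rbbp4, which ISWI and NuRD complexes share, were not called, at 0.32 ± 0.12 (adjusted p = 0.0953) and -0.38 ± 0.12 (adjusted p = 0.0683).

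Of the 6 other NuRD genes, the deacetylase genes Hdac1 and Hdac2 rose and 4 were not called. After centring only Hdac2 was called, as higher. Hdac2 had 85.9 and 78.5 TPM in the SAFB RIP against 33.2 and 40.3 TPM in the IgG RIP, a rise of 1.15 ± 0.16 (adjusted p = 0.0105). Hdac1 rose by 0.44 ± 0.12 (adjusted p = 0.0433), which was -0.02 after centring. The methyl-CpG proteins Mbd2 and Mbd3 were not called, at 0.65 ± 0.23 (adjusted p = 0.0891) and -0.19 ± 0.28 (adjusted p = 0.618).

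The list of INO80, SRCAP and TIP60 subunits held all 4 of the further genes called lower, with 13 higher and 12 not called among 29 tested. Trrap, the giant scaffold of the TIP60 complex, had 245 and 251 TPM in the SAFB libraries against 469 and 343 TPM in the IgG libraries and fell by 0.69 on the log2 scale (SE 0.17, adjusted p = 0.038). The other 3 were Vps72, Ruvbl2 and Mcrs1, named because they complete this count. With the GC trend removed all 4 calls were lost, at -0.40 for Trrap (adjusted p = 0.151), 0.03 for Vps72 (adjusted p = 0.886), 0.02 for Ruvbl2 (adjusted p = 0.947) and 0.03 for Mcrs1 (adjusted p = 0.91). Morf4l2 had 425 and 452 TPM against 52.4 and 171 TPM, a rise of 2.20 ± 0.57 (adjusted p = 0.0416) resting on IgG values that were far apart. Brd8, the bromodomain subunit of TIP60, rose by 1.52 ± 0.16 (adjusted p = 0.00658) and Morf4l1 by 1.02 ± 0.26 (adjusted p = 0.0383). After centring Morf4l2 (adjusted p = 0.059) and Morf4l1 (adjusted p = 0.119) were not called. Over this list 5 genes were then higher and 5 lower, where 16.4% and 17.6% of all genes were called.

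Of 14 further SNF2-like ATPases, 8 rose and 6 were not called, and after centring 4 were higher. Atrx, which with DAXX deposits histone H3.3 at heterochromatin, had 514 and 507 TPM in the SAFB libraries against 120 and 114 TPM in the IgG libraries. Its replicates were close, and it rose by 2.12 ± 0.09 (adjusted p = 0.00373). Btaf1, which removes TBP from DNA, rose by 1.497 ± 0.17 (adjusted p = 0.00785), Ercc6, the Cockayne syndrome B gene, by 1.63 ± 0.13 (adjusted p = 0.00511) and Rad54l2 by 0.48 ± 0.13 (adjusted p = 0.0473). After centring Rad54l2 was at 0.02 (adjusted p = 0.939) and was not called.

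Remodeller transcripts are long, and features of the annotated transcript were set beside the fold changes as a description. The median transcript of the 39 members is 6354 nt, beside 2953 nt over the protein-coding genes tested, and 36 of 39 have a coding sequence longer than the protein-coding median of 1368 nt. Their median GC content is 51.4%, near the 50.4% of protein-coding genes. Across the 39 genes, which all share the same 4 libraries, the fold change had a Spearman rho of -0.72 with GC content, 0.45 with transcript length and 0.46 with GAAGAA copies per kb. Across 11961 protein-coding genes the same values were -0.51, 0.18 and 0.34.

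Along GC content, 12 of the 16 members at or below the protein-coding median rose, where 42.8% of protein-coding genes on that side were called higher. Above the median 6 of 23 rose and 2 fell, where 13.8% of protein-coding genes were higher and 17.9% lower. Pbrm1 at 43.2%, Smarca5 at 40.7% and Chd1 at 43.2% GC are at the low end, and Smarcd3 at 59.1%, Chd5 at 57.4% and Smarcd1 at 57.2% at the high end. Of the last 3 genes none was called, and the 2 that fell, Smarcd2 and Smarcb1, are at 56.9% and 55.2%, among several of like GC content that were not called, such as Mta1, Gatad2a, Arid1a and Smarca4. Chd3 departed from this order, having risen at 56.1% GC, as did Smarcad1, which was not called at 41.1% GC. With the trend of fold change on GC content removed over all genes, 20 members were higher and 0 lower in limma (1 lower at an unadjusted p under 0.05), where 25.3% and 4.01% of all genes were called. That setting added Smarcc2 at 0.75 (adjusted p = 0.0266), Arid1a at 0.95 (adjusted p = 0.0104) and Ep400 at 0.48 (adjusted p = 0.041), and took away Smarcc1 at 0.42 (adjusted p = 0.076). Smarca2 at 51.1% GC kept 1.35 against 0.73 for Smarca4 at 55.8% GC.

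Along length, 17 of the 33 members longer than the protein-coding median rose. Of the 6 shorter ones, Smarce1 rose, Smarcb1 and Smarcd2 fell, and Smarcd3, Brd9 and Mta1 were not called. Of the protein-coding genes longer than their median 34.9% were higher and 7.21% lower, and of the shorter ones 21.7% and 13.1%.

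GAAGAA was counted on the sense strand only, overlapping copies included. It is present in 37 of 39 member transcripts (94.9%) and in 82.5% of all protein-coding transcripts of any length. Of 32 members above the protein-coding median of 0.732 copies per kb, 16 rose and 1 fell, and of 7 at or below it 2 rose (Arid2 and Arid1b) and 1 fell. Among protein-coding genes 38.3% were higher and 5.69% lower above that value, and 18.3% and 14.6% at or below it. Smarca2, whose window is printed above, is the densest member at 3.88 copies per kb, with 23 copies in its transcript, against 15 copies and 2.36 per kb in Smarca4. Arid2 rose with only 2 copies in 8507 nt, and Brd9, with 2.49 copies per kb, did not pass. Chd5 has 26 copies but was at about the filter level in the libraries, so its fold change rests on low values. After removal of the GC trend the rho across the 39 genes was 0.50 for GAAGAA per kb and 0.43 for length, beside 0.25 and 0.08 across the protein-coding genes. The removal, fitted over all genes, left a rho with GC content of -0.28 across the 39 genes and -0.07 across the protein-coding genes.

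**Figure D4:**
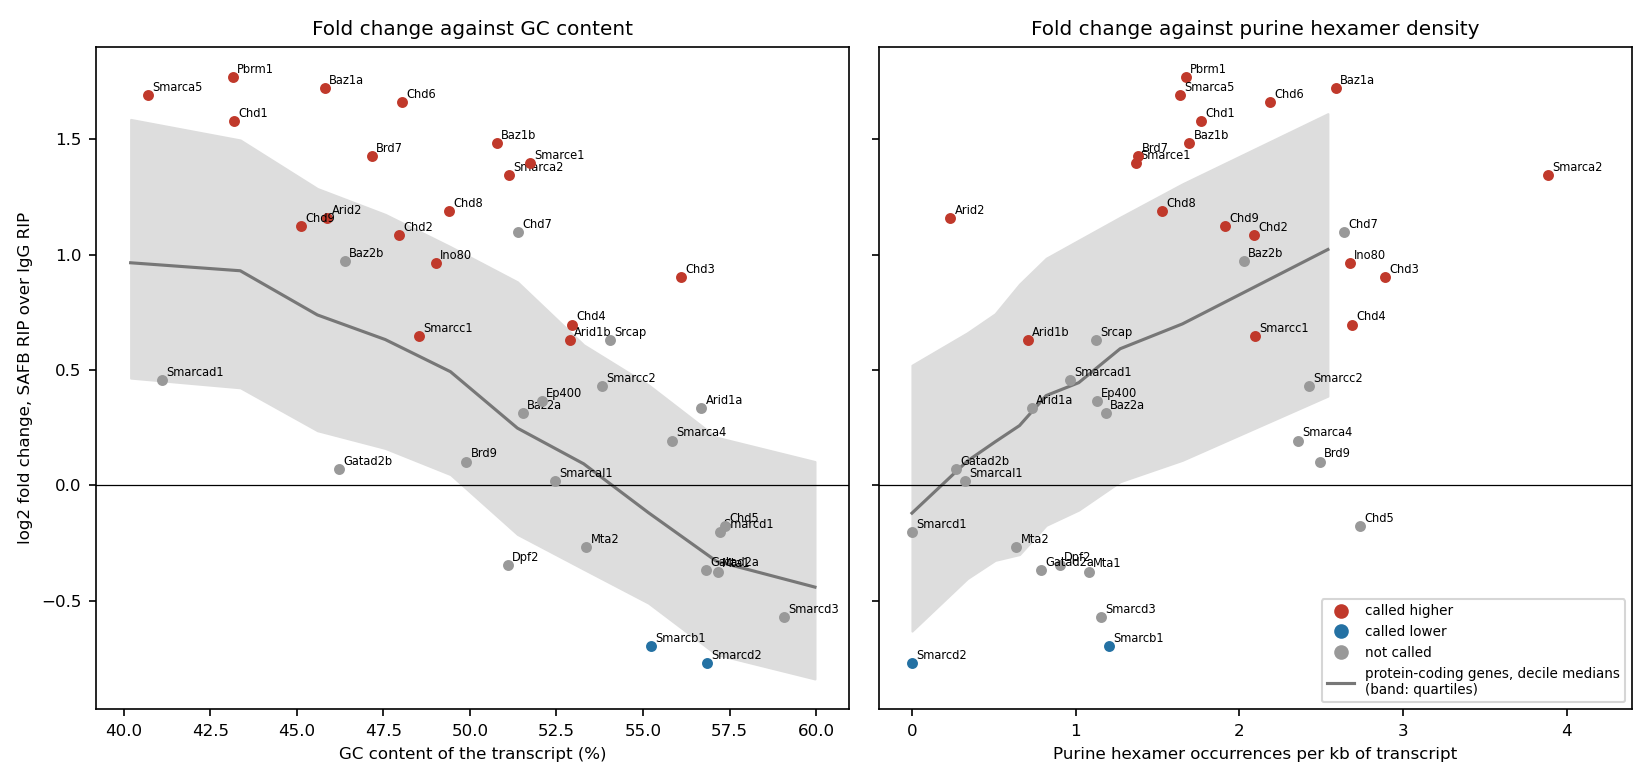
Log2 fold change, SAFB RIP over IgG RIP, of the 39 members against transcript GC content (left) and copies of the purine hexamer per kb (right), coloured by call, over the medians (line) and quartiles (band) of deciles of 11961 protein-coding genes. Of the members called higher, 12 lie at or below the protein-coding median of GC content and 6 above it, with Chd3 the highest in GC content. The densest member, Smarca2, lies at the far right.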

How the data were processed

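RIP-seq of AML12 nuclear RNA gave 4 libraries, 2 with anti-SAFB and 2 with control IgG. The authors deposited 1 table of TPM values. Per the submitters' processing notes HISAT2, HTSeq, StringTie, DESeq2 and mm10 were used, without roles or versions. Which of them made the TPM values, with which annotation and whether strand was used, is not given in the sources used here. These values keep no read depth, so it is unknown and intervals for counting error cannot be had, and an RNA that fills much of a library lowers all others. Without known strand use, values of overlapping genes are uncertain.

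Of 52197 entries, 14 shared an identifier with another and were summed. limma 3.58.1 in R 4.3.3, with a mean-variance trend, was fitted to log2(TPM + 1), which understates changes of low genes, with 2 residual degrees of freedom and 2.50 added by the prior. P-values are two-sided and adjusted by the Benjamini-Hochberg method. The procedure was tested on simulated data. TPM errors are not given per group, since both values are printed, and fold change errors are standard errors. Of the identifiers, 52042 were found in GENCODE M21, from which 1 transcript per gene (APPRIS principal, then longest coding sequence) gave GC content, length and GAAGAA copies. GC and length trends were removed with a lowess curve of span 0.3. Every member is named, with up to 4 genes of highest mean TPM per further list. Members and lists were chosen with earlier results of these data known. In all 15 alternatives were run, 1 of them, the rescaling without ribosomal DNA fragment transcripts, chosen after seeing the data.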

Additional observations from a re-analysis of the deposited data

How the results depend on the processing

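All 20 members called kept their direction in all 15 alternatives, and 13 of the 18 higher calls held in each setting with 4 libraries. Part of this agreement in direction was fixed beforehand. Settings that changed only the filter or the limma model left the fold changes as they were. The groups of the 20 genes did not overlap, so leaving out 1 library could not turn a direction either. Over all genes, 4964 were higher and 1382 lower as deposited. The numbers higher and lower were 2736 and 2935 after median centring, 2758 and 2986 after quantile normalization and 2600 and 2322 with protein-coding genes alone, and 667 were lower with the GC trend removed. Members called lower numbered 2 as deposited, 1 without a filter on low values (4.34% of all genes), 6 after median centring (17.6%), 7 after quantile normalization (17.9%), 6 with protein-coding genes alone (19.2%), 5 without ribosomal DNA fragment transcripts (12.1%), 0 with the GC trend removed (4.01%; 1 member at an unadjusted p under 0.05), 1 with the length trend removed (7.53%) and 0 in limma without the mean-variance trend (5.68%; 2 members at an unadjusted p under 0.05). Further complex genes called higher numbered 32 as deposited (29.8% of all genes) and 15 after centring (16.4%). They numbered 17 after quantile normalization (16.6%) and 19 without ribosomal DNA fragment transcripts (22.5%). Those called lower numbered 4 as deposited (8.3% of all genes), 2 with a pseudocount of 0.1 TPM (7.47%) and 2 without a filter (4.34%). With the GC trend removed the number was 1 (4.01%; Rbbp4, not among the 4), and with the length trend removed 1 (7.53%). In limma without the trend it was 0 (5.68%; 4 at an unadjusted p under 0.05).

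With 1 library left out, the lone library is assumed to vary like the other group. Across these 4 fits the genes called ranged from 767 to 7627 higher and 7 to 2566 lower, the members from 0 to 24 higher and 0 to 6 lower, and the further complex genes from 2 to 42 higher and 0 to 9 lower. The low ends came from leaving out either SAFB library. In each fit the spread came from the group that kept 2 libraries. The median absolute log2 difference between replicates over all genes tested was 0.166 in the SAFB RIP and 0.370 in the IgG RIP. The cause of the changes in calls was not tested.

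Equal replicate numbers were not shown to pair libraries: same-numbered deviations had a correlation of -0.02 across genes. With the replicate number as a block, 21 members were higher and 2 lower, where 28.8% and 7.59% of all genes were called. In that setting 2 further complex genes were lower. Differences between paralog fold changes that turned sign with the GC trend removed were Smarcc1 minus Smarcc2 at -0.33, Arid1b minus Arid1a at -0.12, Baz1b minus Baz1a at 0.11, Gatad2b minus Gatad2a at -0.55, Chd8 minus Chd7 at -0.10, Chd9 minus Chd7 at -0.40 and Mta1 minus Mta2 at 0.28, none of them tested. The last 3 moved by less than the spread between replicates. Unknown depth limits what can be said of Chd5 and of the entries listed at 0.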
